A study of Mus musculus with 2 samples.

Results

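Contactins and contactin-associated proteins are cell adhesion molecules of the neuronal surface. Of the 32285 genes listed for each cell, 10 genes were chosen by their symbols, namely the contactins *Cntn1*, *Cntn2*, *Cntn3*, *Cntn4*, *Cntn5* and *Cntn6* and the contactin-associated proteins *Cntnap2*, *Cntnap4*, *Cntnap5b* and *Cntnap5c*. All 10 were present in the tables and all 10 passed the filter on low counts. They were described in 2 single cell RNA sequencing (scRNA-seq) libraries of the dorsal telencephalon of mouse embryos at E14.5, called replicates 1 and 3 here after their labels. Both samples carried the genotype label WT and came from the line named EoMltt3 in their titles, while the series calls the embryos EomesMllt3 controls of an *Eomes-Cre* line and the methods of the study give the strain of its E14.5 animals as C57BL/6J. Neither was treated. Which Cre or floxed alleles each embryo carried is not given in the sources used here. Both belonged to 1 group, so every comparison below was made between cell classes within these 2 libraries.

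Contactins consist of immunoglobulin and fibronectin type III domains and are tethered to the outer membrane by a glycolipid anchor, so that they act through partners in the same or in the opposite membrane. Contactin-associated proteins span the membrane and belong to the neurexin superfamily, and some of them bind contactins side by side in 1 membrane. The best known pair is CNTN2, also called TAG-1, with CNTNAP2, also called CASPR2, which gathers potassium channels beside the nodes of Ranvier of myelinated axons. Before myelination, these proteins are known from axon growth, fasciculation and neuronal migration, and TAG-1 is a classical marker of early corticofugal axons.

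Each library was made with 3′ chemistry, in which every captured RNA molecule is tagged by its own barcode, the unique molecular identifier (UMI). The total was 64182006 UMIs over 6163 cell barcodes in replicate 1 and 93295807 UMIs over 8870 cell barcodes in replicate 3, and 23 barcode sequences occurred in both. After filtering, 5164 and 6920 cells were kept in 26 clusters. Clusters were named from lists of marker genes and are called "-like", and the 10 members and their partners took no part in the clustering. RGC-like cells are radial glial cells (688 and 1548 cells in replicates 1 and 3), the stem cells of the cortex, and IPC-like cells are the intermediate progenitor cells derived from them (725 and 1309). Projection neurons comprised newborn (481 and 977), corticothalamic-like (554 and 582), layer 5-like (473 and 732) and upper layer-like cells (751 and 629), and a cluster led by *Tafa1* and *Tfap2d* that carried the general projection neuron markers without those of 1 subtype (402 and 168), called other projection neuron-like. Interneuron-like cells of the medial ganglionic eminence (MGE, 334 and 225) and Cajal-Retzius-like cells, the reelin neurons of the marginal zone (34 and 84), completed the compared classes. MGE interneuron-like cells were shallow, with a median of 4545 and 4057 UMIs per cell, against 11267 and 11826.5 in corticothalamic-like cells. A further GABAergic cluster led by *Adarb2* held 443 cells of replicate 1 but 31 of replicate 3, so its values are given per replicate and were not compared. Its sums were still part of the fit and its shared estimate of the spread, and of the correlations over classes. No cluster was named subplate-like or CGE interneuron-like with at least 30 cells in each replicate, so these classes were not compared. In tissue of mixed cells, summed counts per class cannot tell fewer expressing cells from less RNA per cell, and shares of single cells are therefore given further on.

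Levels are given as CPM, the summed UMIs of a gene scaled to an equal total in every class and replicate, and they were compared for 1 gene between classes, not between genes. All 10 members are transcribed from long genes, from *Cntn2* with 33.8 kb (chromosome 1, 132509425 to 132543251, GRCm38) to *Cntnap2* with 2241.3 kb (chromosome 6, 45060061 to 47301393). *Cntn3*, *Cntn6* and *Cntn4* follow each other on chromosome 6, with 1.93 Mb between the first pair and 0.814 Mb between the second. Whether reads in introns were counted is not given in the sources used here. In the 2 whole libraries together *Cntn2* had the most UMIs (24600) and *Cntn6* the fewest (796).

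*Cntn1*, a receptor of neurons and oligodendrocyte precursors, was high in corticothalamic-like cells, with 184.5 CPM in replicate 1 and 160.6 CPM in replicate 3. The next classes, MGE interneuron-like (103.3 and 123.9 CPM), layer 5-like (111.7 and 82.6 CPM) and other projection neuron-like cells (108.6 and 81.0 CPM), overlapped each other. Upper layer-like cells stood lower, with 36.5 and 18.3 CPM. RGC-like, IPC-like, newborn projection neuron-like and Cajal-Retzius-like cells had from 0.612 to 7.7 CPM and were near the bottom of the order. *Cntn1* was thus detected in the projection neuron classes other than newborn cells and in interneurons, and hardly in progenitors and newborn neurons.

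*Cntn2* (TAG-1) was high in all projection neuron classes. Upper layer-like cells held 438.0 CPM in replicate 1 and 548.0 CPM in replicate 3, layer 5-like cells 357.5 and 351.5 CPM, and these classes did not overlap with each other or with the next. Other projection neuron-like (192.7 and 218.2 CPM) and newborn projection neuron-like cells (202.6 and 190.5 CPM) overlapped, as did newborn and Cajal-Retzius-like cells (163.7 and 192.5 CPM). Corticothalamic-like cells had the lowest level among projection neurons, 144.5 and 124.3 CPM. MGE interneuron-like (22.7 and 12.6 CPM) and IPC-like cells (15.4 and 13.3 CPM) overlapped, and RGC-like cells had 3.7 and 3.02 CPM.

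*Cntn3* was present in progenitors and in neurons. RGC-like (39.7 and 36.2 CPM), Cajal-Retzius-like (39.3 and 29.9 CPM), layer 5-like (25.7 and 36.6 CPM) and corticothalamic-like cells (23.8 and 26.5 CPM) overlapped each with its neighbour in the order. Other projection neuron-like (23.3 and 5.74 CPM) and IPC-like cells (11.5 and 12.6 CPM) overlapped, and newborn projection neuron-like cells were lowest among the compared classes, at 4.11 and 5.25 CPM. With a stricter cell filter the mean in RGC-like cells was 113.9 CPM in place of 37.9. That filter left no cluster unnamed. Without it, 7 of the 9 cells of replicate 1 with at least 20 UMIs of *Cntn3* lay in an unnamed cluster. Whether such cells were counted as RGC-like under the filter was not tested.

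*Cntn4* and *Cntn6* were low in most projection neuron classes. *Cntn4*, which has been linked to axon targeting and to the amyloid precursor protein, reached 89.7 and 99.5 CPM in MGE interneuron-like and 63.8 and 34.2 CPM in Cajal-Retzius-like cells, and these ranges were apart. RGC-like cells had 11.4 and 5.85 CPM of *Cntn4*, overlapping with IPC-like cells at 6.48 and 5.25 CPM. *Cntn6*, also called NB-3, had 13.1 and 13.5 CPM in MGE interneuron-like cells, a range within that of RGC-like cells (13.8 and 4.54 CPM). In other projection neuron-like cells the replicates were far apart, with 38.3 and 3.83 CPM of *Cntn4* and 12.8 and 1.91 CPM of *Cntn6*. In newborn, layer 5-like and upper layer-like cells *Cntn6* was below 1 CPM in both replicates, on 1 to 4 UMIs per class and replicate.

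*Cntn5*, also called NB-2, was high in Cajal-Retzius-like cells, with 667.9 CPM in replicate 1 and 771.8 CPM in replicate 3. Other projection neuron-like cells held 644.8 CPM in replicate 1 but 186.3 CPM in replicate 3, which makes this class the one where the replicates lay farthest apart for *Cntn5* among the compared classes. Corticothalamic-like cells had 166.7 and 246.2 CPM. IPC-like cells (90.2 and 52.1 CPM), MGE interneuron-like (42.0 and 111.3 CPM), layer 5-like (30.5 and 101.6 CPM) and upper layer-like cells (37.3 and 23.6 CPM) overlapped each with its neighbour. RGC-like cells were lowest, at 7.29 and 5.44 CPM.

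Among the contactin-associated proteins, *Cntnap2* (CASPR2) had its highest level in Cajal-Retzius-like cells, with 2891 CPM in replicate 1 and 1945 CPM in replicate 3. MGE interneuron-like cells followed with 351.4 and 403.8 CPM and other projection neuron-like cells with 255.2 and 134.6 CPM. The remaining projection neuron classes and the progenitors lay between 21 and 109.8 CPM. *Cntnap4* (CASPR4), known from interneuron synapses, reached 718.8 and 540.3 CPM in MGE interneuron-like and 209.5 and 236.8 CPM in corticothalamic-like cells. It was also found in RGC-like cells (65.9 and 64.0 CPM), above layer 5-like (34.9 and 35.2 CPM), upper layer-like (24.0 and 19.7 CPM), IPC-like (11.5 and 30.3 CPM) and newborn projection neuron-like cells (20.6 and 19.3 CPM), of which the last 3 overlapped.

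*Cntnap5b* and *Cntnap5c* are mouse members of the CASPR5 group. *Cntnap5b* had 419.8 CPM in replicate 1 and 216.2 CPM in replicate 3 in corticothalamic-like cells, 158.8 and 149.7 CPM in Cajal-Retzius-like and 103.8 and 112.5 CPM in layer 5-like cells. These 3 ranges did not overlap, and RGC-like cells held 1.69 and 1.41 CPM. *Cntnap5c* was found at 1041 and 1004 CPM in MGE interneuron-like cells, where it was among the 10 leading genes of the cluster. Every other compared class had at most 44.2 CPM of *Cntnap5c* in either replicate, that value belonging to upper layer-like cells. Red blood cell-like cells, which should lack all of these genes, gave from 0 to 103.7 CPM, with the highest value for *Cntn5* in replicate 1 on 36 UMIs, which came from 1.75% of 57 cells. Their values for *Cntnap5c* were 40.3 and 3.75 CPM, and for *Cntnap4* 31.7 and 5.62 CPM. In CPM, levels of that order in the same replicate of other classes were therefore not above this background. CPM do not show how many cells held the UMIs. For *Cntn5*, 24.3% of the IPC-like cells of replicate 1 held a UMI, at 90.2 CPM, beside 1.75% here. In replicate 3, upper layer-like cells had more *Cntnap5c* (20.4 CPM) than that background. Their cluster led by *Cdh12*, described further on, exceeded it in both replicates.

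**Figure D1:**
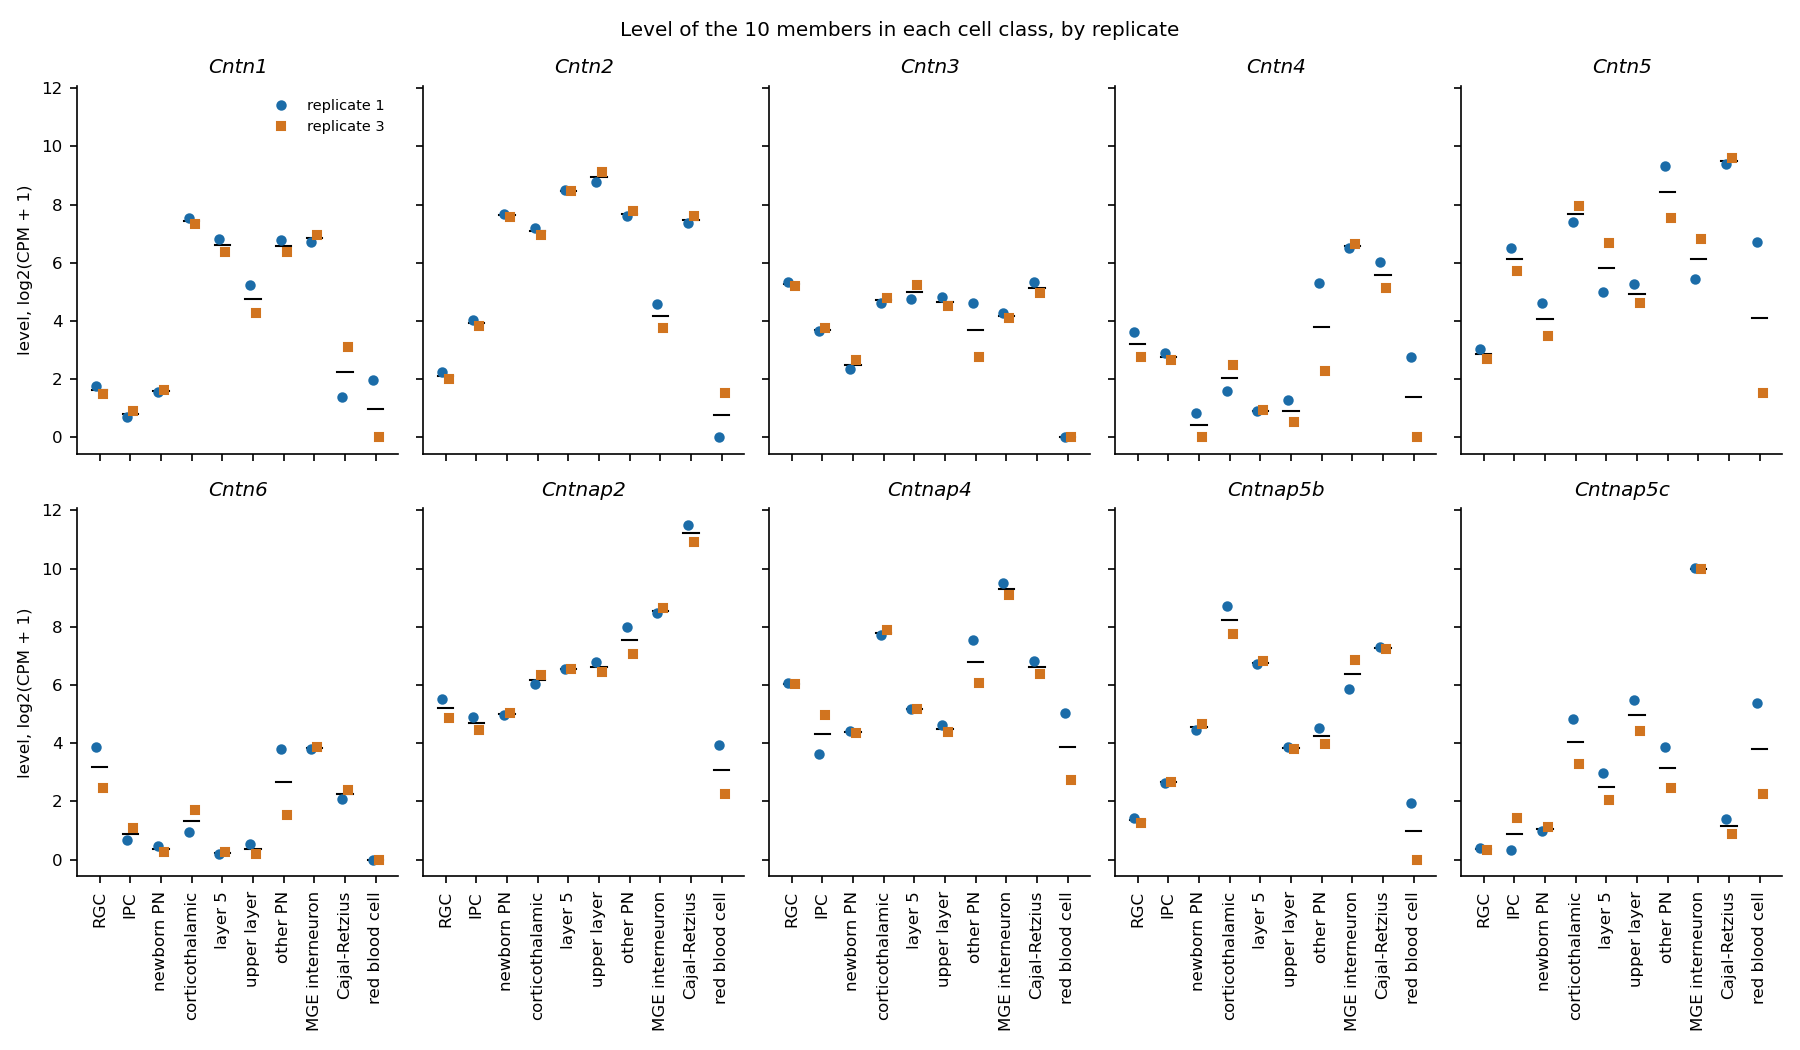
Level of each member as log2(CPM + 1) in 9 compared classes and in red blood cell-like cells as background (PN, projection neuron), with circles for replicate 1, squares for replicate 3 and a line at their mean. *Cntn1* and *Cntnap5b* peaked in corticothalamic-like cells, *Cntn2* in upper layer-like cells, *Cntnap4* and *Cntnap5c* in MGE interneuron-like cells, and *Cntn5* and *Cntnap2* in Cajal-Retzius-like cells.

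To compare neurons with progenitors, UMIs were summed per class and replicate, giving 26 sums of 13 classes, and compared by edgeR (quasi-likelihood F-test, with p-values adjusted after Benjamini and Hochberg across the 15161 genes that passed the filter). Besides the compared classes, these 13 held the GABAergic cluster led by *Adarb2* and meningeal-like, pericyte-like and red blood cell-like cells. A gene was called, or past the threshold, at an adjusted p under 0.05. SE here is the absolute log2 fold change divided by the square root of the F statistic. The fold changes were shrunk with a prior count of 2 and the F statistic was not. The SE is therefore an approximation and not that of the fitted coefficient. Nothing in the labels says that the samples came from separate litters, so p-values measure the spread between these libraries, and classes clustered from the same cells are no independent evidence of cell type differences. Between the mean of the 5 projection neuron classes and RGC-like cells, 6 of the 10 members were higher and 3 were lower in projection neurons, where 30.6% of all genes tested were higher and 34.4% lower. The median log2 fold change of the members was 2.50, against -0.03 over all genes. *Cntn2* rose most (log2 fold change 6.21, SE 0.25, adjusted p = 2.62e-15), followed by *Cntnap5b* (4.71, SE 0.32, adjusted p = 6.87e-11) and *Cntn1* (4.17, SE 0.31, adjusted p = 8.77e-11). *Cntnap5c* (3.74, SE 0.77), *Cntn5* (3.69, SE 0.76) and *Cntnap2* (1.32, SE 0.25) were higher as well. The 3 members with lower levels in projection neurons were the neighbours on chromosome 6, *Cntn6* (-2.69, SE 0.37, adjusted p = 2.67e-06), *Cntn4* (-1.69, SE 0.44, adjusted p = 0.00188) and *Cntn3* (-0.98, SE 0.21, adjusted p = 0.000499). This holds for the mean and not for every class. *Cntn3* in layer 5-like cells (25.7 and 36.6 CPM) overlapped RGC-like cells (39.7 and 36.2 CPM). In replicate 1, *Cntn4* was higher in other projection neuron-like (38.3 CPM) than in RGC-like cells (11.4 CPM). *Cntnap4* was not past the threshold (log2 fold change -0.13, SE 0.35, adjusted p = 0.767), its level in RGC-like cells lying within the range of the projection neuron classes. *Cntn3* was not past the threshold with predicted doublets kept (-0.82) or at a cluster resolution of 0.6 (-0.88), nor was *Cntn4* at a resolution of 1.5 (-1.21). With predicted doublets kept, where cells were also clustered anew, *Cntn2* gave 3.08, *Cntnap5b* 2.39, *Cntn1* 1.73, *Cntn5* 2.02 and *Cntnap5c* 2.36, all still called. A stricter cell filter gave -2.59 for *Cntn3*, with the changed level in RGC-like cells given above. Without the other projection neuron-like class *Cntn4* gave -2.46 and *Cntn6* -3.34.

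The step from RGC-like to IPC-like cells was examined next, since IPCs give rise to most projection neurons. Here 3 members were higher and 3 lower in IPC-like cells, against 16.8% and 22.0% of all genes, and the median of the members was -0.52, against -0.06 over all genes. *Cntn5* was higher in IPC-like cells (3.41, SE 0.83, adjusted p = 0.00239), as were *Cntn2* (2.0, SE 0.25, adjusted p = 1.56e-06) and *Cntnap5b* (1.57, SE 0.37, adjusted p = 0.00225). *Cntn6* (-2.86, SE 0.57, adjusted p = 0.00045), *Cntn3* (-1.60, SE 0.30, adjusted p = 0.000212) and *Cntnap4* (-1.59, SE 0.46, adjusted p = 0.00878) were lower. With predicted doublets kept the differences of *Cntn2* (-1.43, adjusted p = 9.64e-05) and *Cntnap5b* (-1.52, adjusted p = 0.00333) were past the threshold in the opposite direction and *Cntn5* was not past it (1.68, adjusted p = 0.102). In RGC-like cells these genes had few UMIs, 35 and 60 for *Cntn2* and 16 and 28 for *Cntnap5b*. *Cntnap5b* was also not past the threshold with a stricter cell filter (0.85) or with family and partner genes kept for clustering (0.03), which gave 0.76 for *Cntn2* and -3.29 for *Cntnap4*, and *Cntn3* was not past it at a resolution of 0.6 (-1.55). Replicates 1 and 3 alone gave -3.76 and -1.69 for *Cntn6*, and replicate 1 alone -2.45 for *Cntnap4*.

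Newborn projection neuron-like cells were then set against IPC-like cells, to follow the exit from the progenitor state. *Cntn2* (3.89, SE 0.23, adjusted p = 3.7e-10) and *Cntnap5b* (2.15, SE 0.32, adjusted p = 3.25e-05) were higher in newborn neurons, and *Cntn4* (-2.96, SE 0.82, adjusted p = 0.0105) and *Cntn3* (-1.14, SE 0.37, adjusted p = 0.0264) were lower. These are 2 members in each direction, where 12.4% of all genes were higher and 12.7% lower, with a median of 0.12 for the members and 0.00 for all genes. The value of *Cntn4* rested on 4 UMIs in newborn neurons of replicate 1 and 0 in replicate 3, and replicate 3 alone gave -3.75. It was not past the threshold at a resolution of 1.5 (-2.80), and *Cntn3* was not past it under 5 alternatives, with a value of 0.29 when family and partner genes were kept for clustering. *Cntn5* was not past the threshold (log2 fold change -1.90, SE 0.78, adjusted p = 0.0832), but a replicate block brought it past (-1.95, adjusted p = 0.0496), as did no filter on low counts (-1.93), while a stricter cell filter gave -0.45. *Cntn1* had 1.16 (SE 0.51, adjusted p = 0.108) and was called higher under 5 alternatives (1.15 to 2.87). With a stricter cell filter *Cntn2* gave 4.75, with family and partner genes kept for clustering *Cntn2* gave 5.05 and *Cntnap5b* 3.2, and at a resolution of 1.5 *Cntn2* gave 3.24. With scaling by library sizes only, 1364 of the 3859 called genes were higher, in place of 1887 of 3812.

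Corticothalamic-like cells were then set against newborn projection neuron-like cells. These classes can differ in subtype as well as in maturation, and the design cannot tell these apart. In this comparison 8 members were higher and 0 were lower, against 18.5% and 16.4% of all genes, and the median of the members was 2.94, against 0.00. *Cntn1* differed most, from 1.96 and 2.1 CPM in newborn cells (log2 fold change 6.2, SE 0.36, adjusted p = 3.58e-11). *Cntnap5b* (3.83, SE 0.29, adjusted p = 3.66e-09), *Cntnap5c* (3.71, SE 0.86, adjusted p = 0.00185), *Cntn5* (3.62, SE 0.82, adjusted p = 0.00149) and *Cntnap4* (3.50, SE 0.49, adjusted p = 7.43e-06) were higher by similar amounts. *Cntn4* (2.37, SE 0.88, adjusted p = 0.0427), *Cntn3* (2.36, SE 0.36, adjusted p = 3.09e-05) and *Cntnap2* (1.26, SE 0.30, adjusted p = 0.00236) were higher as well. Corticothalamic-like cells had 2.01 and 4.57 CPM of *Cntn4*, on 13 and 32 UMIs, beside 5.76 and 0 CPM in red blood cell-like cells. For *Cntnap5c* they had 27.2 and 8.71 CPM, beside 40.3 and 3.75 CPM. In CPM both genes were thus below that background in replicate 1 and above it in replicate 3. The background of replicate 1 rested on 2 UMIs of *Cntn4* and 14 of *Cntnap5c*. *Cntn2* was not past the threshold (log2 fold change -0.50, SE 0.20, adjusted p = 0.0583), but its lower level was called under 9 alternatives, among them the replicate block (-0.50, adjusted p = 0.0344), the stricter cell filter (-0.97, adjusted p = 0.00096) and no cell filter (-0.99, adjusted p = 0.00233), and not with DESeq2 (-0.35) or at a resolution of 1.5 (0.18). *Cntn4* was not past the threshold under 5 alternatives (values from 1.78 to 2.64), *Cntn3* at a resolution of 0.6 (2.16) or *Cntn5* at 1.5 (2.19). Replicates 1 and 3 alone gave 1.08 and 3.71 for *Cntn4*, 2.85 and 4.59 for *Cntn5*, 4.39 and 2.59 for *Cntnap5c* and 4.35 and 3.15 for *Cntnap5b*. With DESeq2, 3147 of 4852 called genes were higher, in place of 2808 of 5301.

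Projection neuron subtypes differed in opposite ways for *Cntn2* and for 4 other members. Between upper layer-like and corticothalamic-like cells, *Cntn2* was higher in upper layer-like cells (1.81, SE 0.21, adjusted p = 1.16e-06). *Cntnap5b* (-4.61, SE 0.30, adjusted p = 2.52e-09), *Cntnap4* (-3.39, SE 0.48, adjusted p = 2.3e-05), *Cntn5* (-2.80, SE 0.78, adjusted p = 0.0129) and *Cntn1* (-2.69, SE 0.27, adjusted p = 2.36e-07) were lower. This is 1 member higher, where 10.1% of all genes were higher, and 4 lower, where 11.7% were, with a median of -1.53 for the members and 0.00 for all genes. *Cntnap2* (0.38, SE 0.29, adjusted p = 0.398), *Cntnap5c* (0.77, SE 0.56, adjusted p = 0.371) and *Cntn3* (-0.09, SE 0.31, adjusted p = 0.89) were not past the threshold. *Cntn5* was not past it with DESeq2 (-2.92) or at resolutions of 0.6 (-0.94) and 1.5 (-0.35), and replicates 1 and 3 alone gave -2.21 and -3.42. It was lower still without a cell filter (-5.03), with family and partner genes kept for clustering (-4.78) and with a stricter filter (-3.96). At a cluster resolution of 1.5 *Cntn1* gave -1.43 and *Cntnap4* -1.72, and with family and partner genes kept for clustering *Cntnap2* was lower (-1.10, adjusted p = 0.0165), while at a resolution of 1.5 it was higher (1.02, adjusted p = 0.0292).

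Layer 5-like against corticothalamic-like cells was a comparison chosen after the classes had been seen. *Cntn2* was higher in layer 5-like cells (1.36, SE 0.20, adjusted p = 0.000106). *Cntnap4* (-2.70, SE 0.46, adjusted p = 0.000454), *Cntnap5b* (-1.60, SE 0.25, adjusted p = 0.000285) and *Cntn1* (-0.87, SE 0.25, adjusted p = 0.0266) were lower, the last not past the threshold under 4 alternatives (-0.41 to -0.96). Of all genes 4.84% were higher and 5.24% lower, and the medians were -1.58 for the members and -0.00 for all genes. With DESeq2, 484 of 1276 called genes were higher, in place of 734 of 1528, and with a replicate block 2589 genes were called, the same 4 members among them. Replicate 3 alone gave -0.98 for *Cntnap5b*. Both subtype comparisons share the corticothalamic-like sums.

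To compare neurons born in the ventral telencephalon with local neurons, MGE interneuron-like cells were set against the mean of the projection neuron classes. Of the 10 members 7 were higher and 1 was lower, against 15.6% and 19.0% of all genes, and the medians were 1.70 for the members and -0.05 for all genes. *Cntnap5c* differed most (6.77, SE 0.37, adjusted p = 6.33e-12), before *Cntn4* (5.11, SE 0.43, adjusted p = 8.41e-09), *Cntnap4* (3.42, SE 0.29, adjusted p = 6.42e-09) and *Cntn6* (3.23, SE 0.52, adjusted p = 7.51e-05). *Cntnap2* (2.04, SE 0.20), *Cntn1* (1.36, SE 0.22) and *Cntnap5b* (0.77, SE 0.24, adjusted p = 0.0183) were higher to a lesser degree. For *Cntn1* and *Cntnap5b* this holds for the mean and not for every class. *Cntn1* was lower in MGE interneuron-like (103.3 and 123.9 CPM) than in corticothalamic-like cells (184.5 and 160.6 CPM). So was *Cntnap5b*, with 57.9 and 116.3 CPM against 419.8 and 216.2 CPM. *Cntn2* was the member with the lower level in interneurons (-3.85, SE 0.25, adjusted p = 5.24e-11). *Cntn3* (-0.12, SE 0.34, adjusted p = 0.835) and *Cntn5* (-0.17, SE 0.56, adjusted p = 0.87) were not past the threshold. *Cntnap5b* was not past it under 5 alternatives (values from 0.14 to 0.65), and its difference was 0.11 in replicate 1 and 1.36 in replicate 3. Replicate 3 alone gave 5.88 for *Cntn4* and 7.38 for *Cntnap5c*, the mean without other projection neuron-like cells gave 5.92 for *Cntn4* and 3.92 for *Cntn6*, and with doublets kept *Cntn2* gave -2.0. The split of all called genes depended on the scaling, with 2369 of 5252 genes higher here, 3069 of 5319 with library sizes only and 3219 of 5231 with DESeq2, as the median of all genes moved from -0.05 to 0.06 and 0.16. None of the 8 called members changed direction or lost its call under these scalings.

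Cajal-Retzius-like cells were compared with the same projection neuron mean, so these comparisons share it. *Cntnap2* was higher in Cajal-Retzius-like cells (4.59, SE 0.18, adjusted p = 2.85e-14), and so were *Cntn4* (4.03, SE 0.61, adjusted p = 2.72e-05), *Cntn5* (2.92, SE 0.49, adjusted p = 0.0001) and *Cntnap5b* (1.47, SE 0.23, adjusted p = 5.68e-05). *Cntn1* (-3.06, SE 0.52, adjusted p = 9.31e-05) and *Cntn2* (-0.74, SE 0.18, adjusted p = 0.00317) were lower. This holds for the mean and not for every class. *Cntnap5b* (158.8 and 149.7 CPM) was below corticothalamic-like cells (419.8 and 216.2 CPM). *Cntn2* (163.7 and 192.5 CPM) was above them (144.5 and 124.3 CPM). *Cntn1* (1.64 and 7.7 CPM) overlapped newborn cells (1.96 and 2.1 CPM). The 4 higher and 2 lower members stood against 16.3% of all genes higher and 14.0% lower, with medians of 1.06 and -0.03. With library sizes only, 3796 of 4973 called genes were higher and with DESeq2 2999 of 4514, in place of 2471 of 4591. The median of all genes moved to 0.24 and 0.15, and *Cntn2* was not past the threshold with library sizes only (-0.46, adjusted p = 0.0515). Replicates 1 and 3 alone gave -4.69 and -2.38 for *Cntn1*. *Cntnap4* (0.60, SE 0.45, adjusted p = 0.355) and *Cntn6* (1.43, SE 0.77, adjusted p = 0.184) were not past the threshold.

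**Figure D2:**
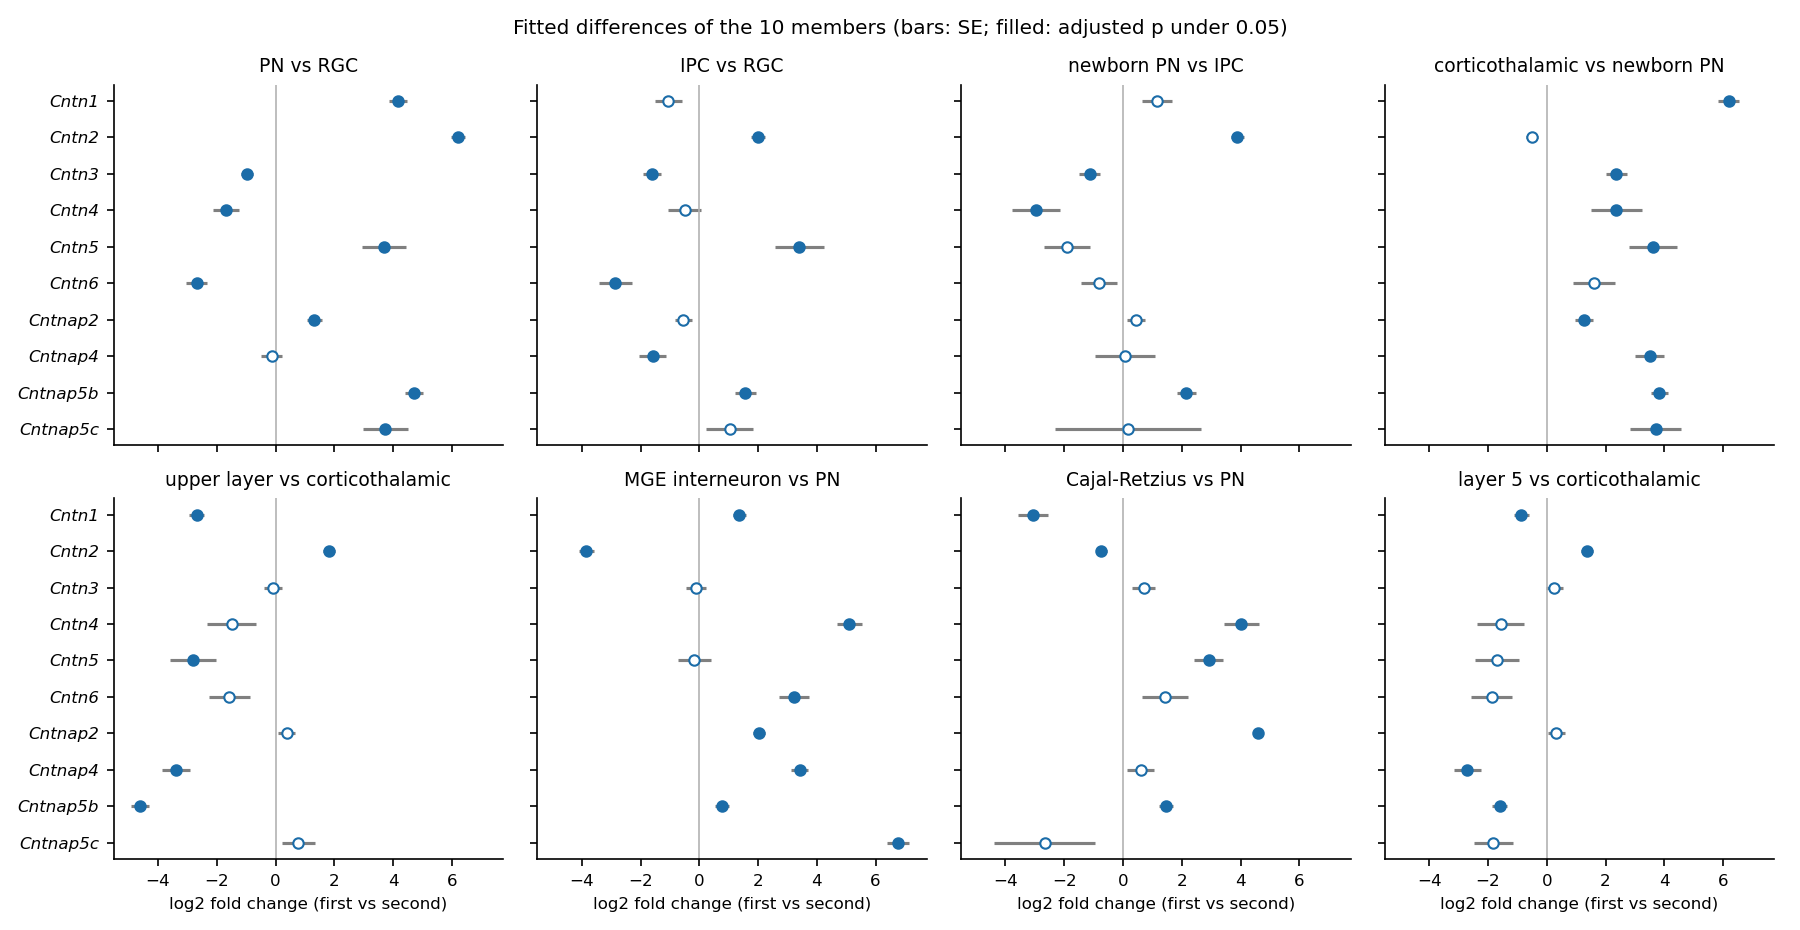
Log2 fold changes of the 10 members in 8 comparisons (points, with bars for the SE, and filled points for an adjusted p under 0.05 in edgeR's quasi-likelihood test). The SE is approximate, the absolute log2 fold change divided by the square root of the F statistic. *Cntn2* lay above 0 in both projection neuron subtype comparisons, where *Cntn1*, *Cntnap4* and *Cntnap5b* lay below 0, and it was the one filled point below 0 in MGE interneuron-like cells.

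*Cntn5* and *Cntnap2* were the members with the most similar levels across the 13 classes of the fit (Pearson r = 0.86, the highest of 45 pairs), before *Cntn4* and *Cntn6* (r = 0.85). *Cntn3*, the further neighbour on chromosome 6, had r = 0.15 with *Cntn4* and 0.43 with *Cntn6*. These correlations are descriptions over classes that share 2 libraries. For the first pair, the 250 bases before the RefSeq transcription start (GRCm38.p6) are shown here, as both genes had their highest level in the same class. RefSeq promoter windows were found for 8 of the 10 members, and these 2 windows lie outside the annotated span of their gene. Capitals mark CG dinucleotides, the sites at which mammalian DNA is methylated.
*Cntn5*, chr9:10904776-10905025, minus strand: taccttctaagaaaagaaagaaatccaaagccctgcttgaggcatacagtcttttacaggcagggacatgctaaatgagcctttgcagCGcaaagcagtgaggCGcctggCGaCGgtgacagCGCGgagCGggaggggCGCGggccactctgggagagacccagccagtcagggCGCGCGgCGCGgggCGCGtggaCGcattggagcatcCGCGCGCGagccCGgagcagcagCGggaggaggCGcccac
*Cntnap2*, chr6:45059811-45060060, plus strand: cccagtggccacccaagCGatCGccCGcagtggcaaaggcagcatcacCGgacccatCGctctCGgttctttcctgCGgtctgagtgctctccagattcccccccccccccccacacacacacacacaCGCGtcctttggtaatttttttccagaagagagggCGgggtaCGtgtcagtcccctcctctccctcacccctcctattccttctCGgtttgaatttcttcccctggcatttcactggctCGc
The window of *Cntn5* held 24 CG dinucleotides and that of *Cntnap2* 13, against a median of 6 over 27025 genes with such a window. They stood at the 89.7th and 70.5th percentile. The remaining 6 members ranged from 0 (*Cntn3*) to 12 (*Cntnap5b*). Their windows overlap the annotated span of their gene and need not lie before its outermost start. The window of *Cntn3* ends at 102464917, and its gene, on the minus strand, at 102564614. That of *Cntn4* starts at 106118515, and its gene, on the plus strand, at 105677632. The E-box CAGCTG, which equals its reverse complement and is present in 12.7% of all windows, occurred in neither of the windows shown, once in that of *Cntn4* and in 2 places in that of *Cntn6*. CAGATG or its reverse complement, present in 14.5% of all windows, was found in none of the 8. A match of letters is a description of the sequence and not a binding site.

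Next, it was asked how many cells of a class carried a UMI of each member. Each cell was thinned to 3000 UMIs, and intervals are 95% Wilson intervals that cover counting error only. *Cntn2* was found in 496 of 740 upper layer-like cells of replicate 1 (67.0%, 63.6 to 70.3) and 471 of 600 of replicate 3 (78.5%, 75.0 to 81.6). Without thinning the shares were 92.0% and 95.4%. *Cntn2* was also present in 40.4% and 37.1% of newborn projection neuron-like cells, against 1.5% and 1.13% of RGC-like cells. In red blood cell-like cells it was found in 0 of 48, which allows a share of up to 6.25%, and 1 of 61 (1.64%).

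*Cntnap5c* was found in 192 of 266 MGE interneuron-like cells (72.2%, 66.5 to 77.2) and 121 of 162 (74.7%, 67.5 to 80.8), and *Cntnap4* in 60.5% and 59.9% of them. Without thinning the shares were 80.2% and 78.7%, and 68.6% and 65.8%. Of this class 68 and 63 cells held under 3000 UMIs and were left out. In red blood cell-like cells *Cntnap5c* was found in 4.17% and 1.64% at 3000 UMIs, and in 3.51% and 1.05% without thinning, at median depths of 5311 and 4541 UMIs. *Cntnap2* was detected in 91.2% (77.0 to 97.0) of 34 and 77.1% (67.0 to 84.8) of 83 Cajal-Retzius-like cells, and *Cntn5* in 50.0% and 57.8%, or 97.1% and 82.1%, and 82.4% and 73.8%, without thinning. In corticothalamic-like cells *Cntn1* was found in 35.6% and 32.6%, *Cntnap4* in 33.7% and 41.8%, *Cntnap5b* in 36.5% and 29.9% and *Cntn5* in 8.85% and 11.7% of the cells. Without thinning, *Cntn1* was found in 68.1% and 62.7% and *Cntnap5b* in 50.2% and 44.0% of them. *Cntn6* never exceeded 4.47% in a projection neuron class (other projection neuron-like cells of replicate 1), beside 0 of 48 red blood cell-like cells of that library, which allows a share of up to 6.25%.

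The mean number of members with a UMI in the same cell was larger in neurons than in progenitors. It was 0.434 and 0.359 in RGC-like, 0.323 and 0.278 in IPC-like and 0.674 and 0.599 in newborn projection neuron-like cells. Corticothalamic-like cells held 1.65 and 1.69 members, layer 5-like 1.3 and 1.31, and upper layer-like cells 1.06 and 1.08. MGE interneuron-like (2.11 and 2.44) and Cajal-Retzius-like cells (2.44 and 2.54) had the most. At least 3 members were found in 31.2% and 43.2% of MGE interneuron-like cells, against 5.54% and 2.17% of upper layer-like cells. The share without any member was 65.9% and 70.3% in RGC-like, but 2.26% and 1.85% in MGE interneuron-like cells. Red blood cell-like cells gave 0.104 and 0.0328 members per cell. No test was made over cells.

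**Figure D3:**
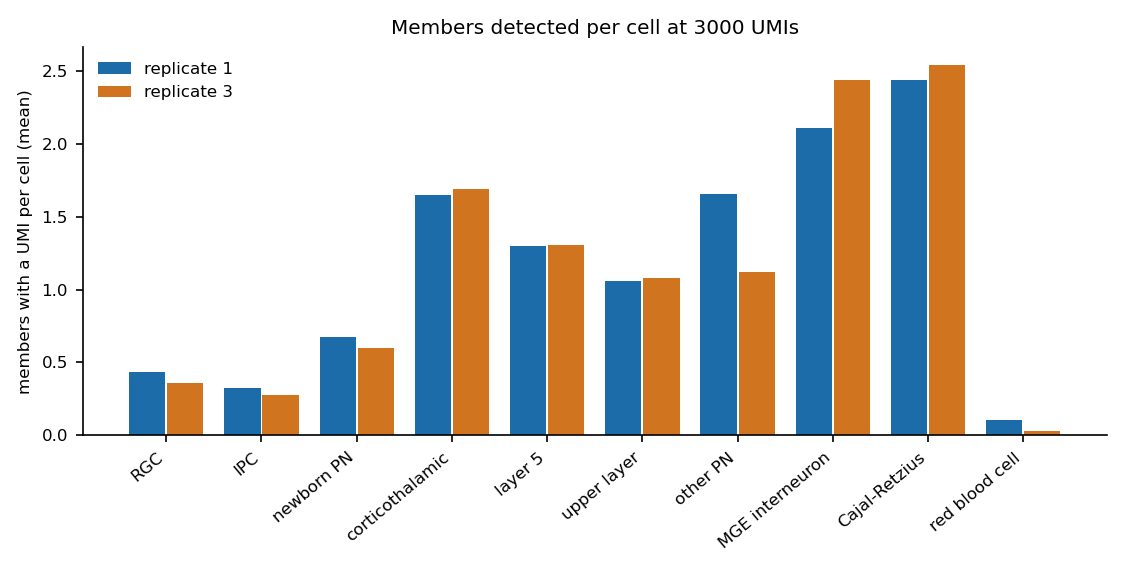
Mean number of the 10 members with a UMI per cell at 3000 UMIs, by class (PN, projection neuron) and replicate (bars). Both replicates were above 2 in MGE interneuron-like and Cajal-Retzius-like cells and below 0.5 in RGC-like and IPC-like cells.

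Pairs of members were then counted in the same MGE interneuron-like cells at 3000 UMIs. *Cntnap2* was found in 53.1% and 67.6% of the cells with *Cntn1* (32 and 34 cells), but in 23.9% and 27.3% of those without. *Cntnap5c* went the other way, with 43.8% and 50.0% of the cells with *Cntn1* against 76.1% and 81.2% of those without. *Cntn4* was found beside *Cntnap5c* (81.1% and 91.2% of 37 and 34 cells with *Cntn4*, against 70.7% and 70.3% without), while *Cntnap2* was found in 18.9% and 14.7% of them, against 28.8% and 41.4% without *Cntn4*. *Cntnap5c* was present in 72.0% and 76.3% of the cells with *Cntnap4* and in 72.4% and 72.3% of those without. In upper layer-like cells, *Cntn1* was found in 4.23% and 1.49% of the cells with *Cntn2*, against 15.6% and 7.75% of those without. These shares come from cells of 2 libraries and are given without a test.

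Several classes were made of clusters with unlike levels. In IPC-like cells *Cntn5* was found at 156.6 and 65.8 CPM in cluster 3, led by *Kif26b* and *Eomes*, and at 97.5 and 114.3 CPM in the dividing cluster 15, but at 12.6 and 12.8 CPM in cluster 7, led by *Gadd45g*, and 19.8 and 29.9 CPM in cluster 13, led by *Rmst*. *Cntn3* was low in the first pair of these clusters, with 0.297 and 1.81 CPM in cluster 3 and 6.7 and 4.61 CPM in cluster 15, against 21.6 and 19.4 CPM in cluster 7 and 32.5 and 29.1 CPM in cluster 13. Layer 5-like cells of cluster 10, led by *Slit3* and *Crym*, held 62.3 and 211.9 CPM of *Cntn5*, 179.1 and 165.8 CPM of *Cntnap2* and 186.4 and 188.2 CPM of *Cntnap5b*. Those of cluster 6 held 5.13 and 2.12 CPM, 24.4 and 25.8 CPM and 37.7 and 44.1 CPM of the same genes. The ranges of the layer 5-like clusters did not overlap for any of the 3 genes.

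Upper layer-like cells were divided as well. Cluster 14, led by *Cdh12*, had 272.9 and 411.5 CPM of *Cntnap2*, 128.4 and 180.6 CPM of *Cntnap5c* and 85.5 and 108.6 CPM of *Cntn1*, while the larger cluster 2 had 26.8 and 45.7, 1.33 and 0.506, and 11.5 and 7.09 CPM. *Cntn2* was the reverse, with 240.8 and 387.1 CPM in cluster 14 and 538.3 and 568.0 CPM in cluster 2, where it was among the 10 leading genes. In RGC-like cells *Cntnap4* and *Cntn3* were highest in cluster 4, led by *Mt3* and *Fabp7* (97.1 and 88.1 CPM, and 57.2 and 50.0 CPM), and lower in clusters 12 (14.2 and 45.1 CPM, and 10.7 and 17.9 CPM) and 16 (22.3 and 9.75 CPM, and 11.1 and 11.4 CPM). Clusters were drawn from the same cells, so these values are descriptions.

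**Figure D4:**
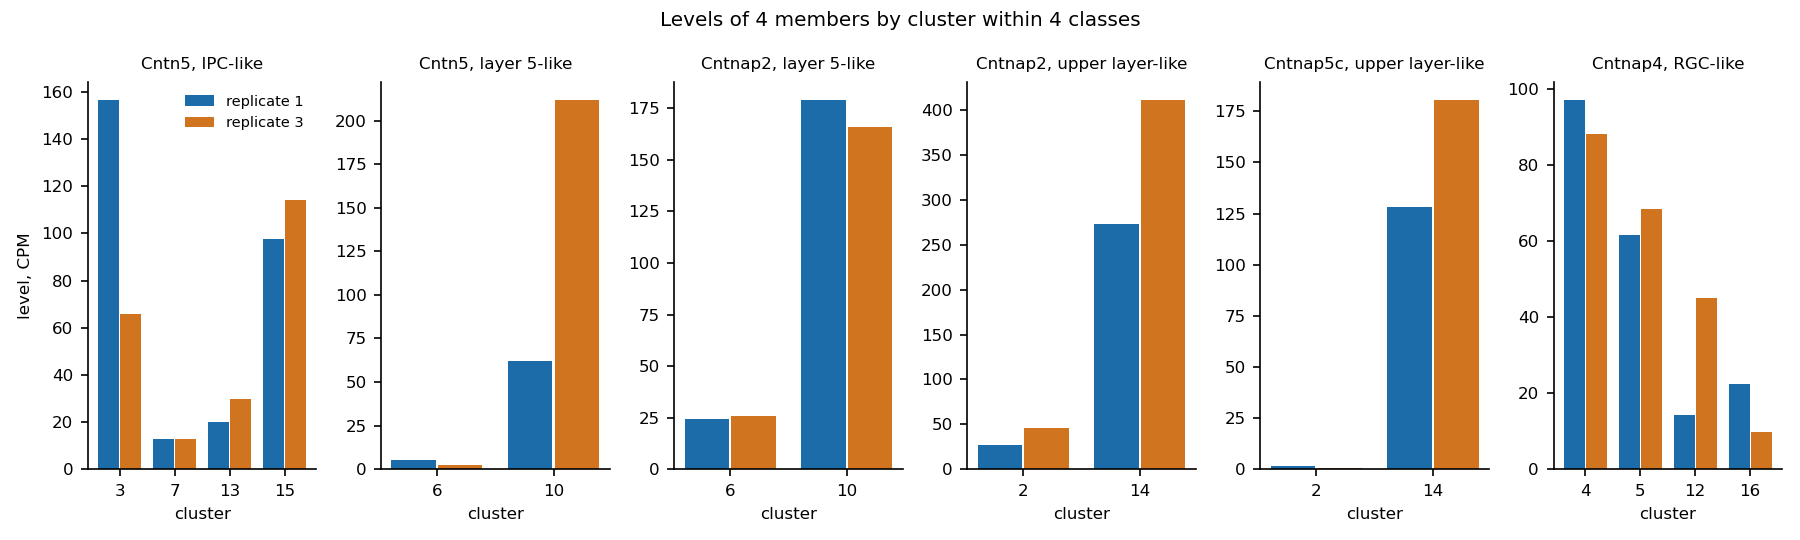
Levels in CPM (bars, vertical axes from 0) of *Cntn5*, *Cntnap2*, *Cntnap5c* and *Cntnap4* in the clusters that make up IPC-like, layer 5-like, upper layer-like and RGC-like cells, for replicates 1 and 3. *Cntnap2* was above 160 CPM in both replicates of cluster 10 and cluster 14 and below 50 CPM in clusters 6 and 2.

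The GABAergic cluster led by *Adarb2* differed between the replicates. Its 443 cells of replicate 1 held 1040 CPM of *Cntn5*, 224.5 CPM of *Cntn4*, 134.0 CPM of *Cntnap4* and 194.6 CPM of *Cntnap5c*. Its 31 cells of replicate 3 held 7.65, 30.6, 611.7 and 1155 CPM of these genes, with *Cntn5* on 1 UMI and *Cntn4* on 4 UMIs. These values were closer to MGE interneuron-like cells of that library (111.3, 99.5, 540.3 and 1004 CPM) than to replicate 1 of the cluster. The reverse held for *Cntnap2* and for *Cntnap3*, a further family gene. Those 31 cells had 152.9 and 7.65 CPM of them, against 331.9 and 16.9 CPM in replicate 1 and 403.8 and 252.0 CPM in MGE interneuron-like cells. *Cntn6* was at 37.8 CPM in replicate 1 and at 0 UMIs in replicate 3. With so few cells in replicate 3, the number of cells and the replicate cannot be told apart in this cluster.

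The remaining contactin-associated proteins were *Cntnap1*, *Cntnap3* and *Cntnap5a*. *Cntnap1*, the CASPR of myelinated axons, had 40 UMIs in both libraries together. *Cntnap3* was found at 219.7 and 252.0 CPM in MGE interneuron-like cells and was higher there than in projection neurons (log2 fold change 8.39, SE 0.22, adjusted p = 8.14e-17), where its levels were below 1 CPM in each class. It was lower in projection neurons (-0.82, adjusted p = 0.0168) and in IPC-like cells (-1.27, adjusted p = 0.0142) than in RGC-like cells, which had 1.06 and 0.705 CPM on 10 and 14 UMIs. Red blood cell-like cells had 0 and 3.75 CPM, on 0 and 2 UMIs. In replicate 3 the level of RGC-like cells was thus not above background in CPM. *Cntnap5a* had 86.6 and 74.7 CPM in other projection neuron-like cells. Its level exceeded that of RGC-like cells both in projection neurons (5.11, SE 0.53, adjusted p = 3.26e-08) and among IPCs (3.79, SE 0.58, adjusted p = 2.5e-05), and it was higher in upper layer-like than in corticothalamic-like cells (1.45, SE 0.45, adjusted p = 0.025).

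Known and proposed partners of the family comprise the L1-type adhesion molecules (*L1cam*, *Nrcam*, *Nfasc*, *Chl1*), *Ncam1*, the receptor tyrosine phosphatases *Ptprz1* and *Ptprg*, the matrix proteins *Tnr* and *Tnc*, the amyloid precursor group (*App*, *Aplp1*, *Aplp2*), *Notch1*, the scaffold *Epb41l3* and the potassium channels *Kcna1* and *Kcna2*. All 16 were tested. In projection neurons against RGC-like cells, where 30.6% of all genes were higher and 34.4% lower, 8 of the 16 were higher, *Chl1* (log2 fold change 6.40), *Tnr* (6.03), *L1cam* (5.27), *Aplp1* (4.33), *Kcna1* (3.49), *Nfasc* (3.39), *Kcna2* (1.58) and *Ncam1* (0.73). The 5 lower ones were *Tnc* (-7.23), *Notch1* (-5.95), *Ptprz1* (-1.36), *Nrcam* (-0.88) and *Aplp2* (-0.74). *Ptprz1*, which binds CNTN1, stood at 1033 CPM (mean of both replicates) in RGC-like cells, where *Cntn1* had 2.12 CPM, and at 915.1 CPM in corticothalamic-like cells, where *Cntn1* had 172.5 CPM.

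Between IPC-like and RGC-like cells (16.8% of all genes higher, 22.0% lower) 4 partners were higher, *Chl1* (3.97), *L1cam* (3.23), *Aplp1* (2.62) and *Nfasc* (1.84). Lower were 7, *Tnc* (-4.29), *Ptprz1* (-3.85), *Notch1* (-1.39), *Epb41l3* (-1.21), *Ncam1* (-1.02), *Nrcam* (-1.0) and *Aplp2* (-0.50). From IPC-like to newborn projection neuron-like cells (12.4% and 12.7%) 8 rose, *Chl1* (2.74), *Kcna1* (2.15), *Kcna2* (2.06), *Nfasc* (2.05), *L1cam* (2.0), *Aplp1* (1.18), *Epb41l3* (0.70) and *Ncam1* (0.63), while *Notch1* (-3.86) and *Tnc* (-3.69) fell. In corticothalamic-like against newborn cells (18.5% and 16.4%) 9 were higher, *Tnr* (5.62), *Ptprz1* (3.70), *Kcna1* (1.99), *Ncam1* (1.74), *Tnc* (1.73), *Nrcam* (1.27), *Aplp1* (1.01), *Ptprg* (0.98) and *Epb41l3* (0.86), and *Notch1* (-1.70) and *Nfasc* (-0.93) were lower. The higher level of *Tnc* was 2.16 and 1.71 CPM on 14 and 12 UMIs, beside 5.76 and 1.87 CPM in red blood cell-like cells. *Notch1* had 2.35 and 3.99 CPM in newborn and 0.772 and 0.714 CPM in corticothalamic-like cells, beside 11.5 and 5.62 CPM in red blood cell-like cells. Neither gene was above that background in either replicate of these classes. The background itself rested on 1 to 4 UMIs per gene and replicate.

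Among the subtypes, where 10.1% of all genes were higher and 11.7% lower, upper layer-like cells had less *Nrcam* (-2.09), *Tnr* (-1.39), *Ptprg* (-1.11), *Chl1* (-0.75) and *Aplp1* (-0.66) and more *Nfasc* (0.54) than corticothalamic-like cells. Layer 5-like cells (4.84% and 5.24%) had less *Nrcam* (-2.08) and *Chl1* (-1.08) and more *Kcna1* (1.0) and *Epb41l3* (0.66). MGE interneuron-like cells had more *Tnr* (1.40), *Notch1* (1.38) and *Ncam1* (1.02) than projection neurons (15.6% and 19.0%). *Notch1* had 3.41 and 10.1 CPM there and 3.27 and 13.7 CPM in Cajal-Retzius-like cells, on 2 to 16 UMIs. Red blood cell-like cells had 11.5 and 5.62 CPM, on 4 and 3 UMIs. Both classes were thus below that background in replicate 1 and above it in replicate 3. MGE interneuron-like cells had less *Kcna1* (-2.67), *Ptprz1* (-2.05), *L1cam* (-1.81), *Nfasc* (-1.81), *Epb41l3* (-1.49), *Ptprg* (-1.03), *App* (-0.55) and *Aplp1* (-0.51). Cajal-Retzius-like cells (16.3% and 14.0%) had more *Notch1* (1.89), *Ptprg* (1.80), *Aplp2* (1.22) and *Nfasc* (0.49) and less *Ptprz1* (-4.57), *Kcna1* (-4.05), *Nrcam* (-2.61), *Chl1* (-0.85), *L1cam* (-0.83) and *Ncam1* (-0.50). The medians of the 16 partners were 0.46, -0.40, 0.67, 0.92, -0.40, -0.03, -0.53 and -0.39 in the 8 comparisons, in the order in which they are given here, beside the medians of all genes above.

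Genes most like each member were sought by Pearson correlation of log2(CPM + 1) over the 13 classes, outside the family and with at least 20 CPM in a class for the member. *Cntn1* was most like *Amer3* (r = 0.981), *Rims4* (0.964) and *Gpr139* (0.962). *Cntn2* was most like *Dok7* (0.958), *Efna3* (0.958) and *Tuba1a* (0.957), and *Cntn5* like *Sphkap* (0.921) and *Nt5c3* (0.898). *Cntnap2* was most like *Jag2* (0.951), *Gpr158* (0.943) and *Gm13883* (0.934), and *Cntnap4* like *Amph* (0.951), *Atp1b1* (0.936) and *Dnm3* (0.931). *Cntnap5b* was followed by *Gm16894* (0.970), *Spag6l* (0.970) and *A830031A19Rik* (0.968), and *Cntnap5c* by *Gm13619* (0.963), *Col19a1* (0.930) and *Cd226* (0.925). The values were lower for *Cntn4* (*Epb41l4a*, 0.903; *4930505M18Rik*, 0.897; *Myo3a*, 0.886), and those of *Cntn3* were *Scap* (0.940), *Bloc1s5* (0.933) and *Irak1bp1* (0.931). *Cntn6* had no gene sought, since its mean over both replicates stayed below 20 CPM in each class of the fit.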

How the data were processed

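Single cell suspensions of 2 dorsal telencephalon samples were profiled by 10x 3′ scRNA-seq. Per the labels, Cell Ranger 7.0.0 and mm10 were used, and the authors deposited 1 matrix of raw UMI counts per sample, whose gene totals give the depth in the report. Cells with 1500 to 60000 UMIs and at most 10% mitochondrial counts were kept, and doublets were predicted by comparison with simulated mixtures at a rate that rose with the number of cells and removed (304 and 629). Cells were clustered with scanpy 1.11.5 (2000 variable genes without members, other family genes and partners, 30 components, 15 neighbours, Leiden resolution 1) and named where at least 3 markers were on. UMIs were summed per class and replicate and tested with edgeR 4.0.16 (R 4.3.3, quasi-likelihood, TMM, prior count 2, Benjamini-Hochberg adjusted p under 0.05), all classes sharing 1 estimate of the spread. The script was checked on simulated data. Members and lists were chosen with earlier results of these data known. Genes named were the members, the partners past the threshold and the 3 most similar genes per member at 20 CPM or more, of which some are not reported here. Sums of classes from 1 library share a replicate number. Over 36 pairs of classes the deviations of same-numbered sums correlated from 0.0298 to 0.359 (median 0.127, 24 over 0.1), and as sums of 1 number come from 1 library the fit with a replicate block was run as well, its values standing beside the results it changed. Other alternatives were DESeq2 1.42.0, library sizes only, no low-count filter, other cell filters, doublets kept, resolutions of 0.6 and 1.5, family and partner genes kept for clustering, a prior count of 0.5 and leaving out a replicate. Chosen after seeing the data were neural classes only and the projection neuron mean without 1 class. Planned comparisons with subplate-like and CGE interneuron-like cells were not run.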

Additional observations from a re-analysis of the deposited data

Results flagged for a closer look

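*Cntn3* was found in data outside the comparisons, in the unnamed cluster 21 (58 and 69 cells), at 2298 CPM as the mean of 4489 CPM in replicate 1 and 106.4 CPM in replicate 3, above the 39.7 CPM of the highest compared class. Cells with at least 20 UMIs of *Cntn3* numbered 9 in replicate 1, of which 7 lay in cluster 21, and 1 in replicate 3. The 9 cells held 1458 of the 2750 *Cntn3* UMIs of replicate 1, from 35 to 512 each, and *Sox10*, a gene of glia of the neural crest and oligodendrocyte lineage, was found in 7 of them.

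*Cntn1* was found in hem and choroid plexus-like cells (14 and 129 cells, led by *Ttr* and *Htr2c*) at 191.0 CPM, the mean of 205.6 and 176.4 CPM, beside 184.5 and 160.6 CPM in corticothalamic-like cells, the highest compared class. The class had under 30 cells in replicate 1 and was not tested.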

How the results depend on the processing

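Of 642 values of called members under the alternatives, 607 kept direction and threshold, 32 lost the threshold and 3 reversed, and 53 values of uncalled members were newly called. Reversed were *Cntn2* (-1.43) and *Cntnap5b* (-1.52) between IPC-like and RGC-like cells with doublets kept, and with family and partner genes kept for clustering *Cntn3* between newborn and IPC-like cells (0.29) and the uncalled *Cntnap2* between upper layer-like and corticothalamic-like cells (-1.10, called, against 1.02, called, at a resolution of 1.5). The causes were not tested. Without a filter on low counts, 8 members were called between upper layer-like and corticothalamic-like cells, 8 between layer 5-like and corticothalamic-like cells and 10 in Cajal-Retzius-like cells. Genes called between upper layer-like and corticothalamic-like cells numbered 2102 at a resolution of 0.6 (3300 in the report's fit), and between layer 5-like and corticothalamic-like cells 2589 with the replicate block and 700 with doublets kept (1528). The replicate block otherwise changed the calls of *Cntn5* (newborn against IPC-like) and *Cntn2* (corticothalamic-like against newborn) and of no other member. Layer 5-like cells could not be compared without a cell filter or at a resolution of 0.6, as no such class was named. Leaving out a replicate left 1 sum per class, a value with no test. At 2 libraries and under 6 UMIs per class, as for *Cntn6* in most projection neurons, depth limits what can be told.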

Other observations

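Hem and choroid plexus-like cells, the signalling and fluid-secreting epithelium at the edge of the cortex, also held other members. *Cntn5* stood at 710.2 and 186.0 CPM, *Cntnap2* at 299.0 and 197.8 CPM and *Cntnap4* at 286.6 and 199.0 CPM in replicates 1 and 3. *Cntn6* was at 0 UMIs in the 14 cells of replicate 1 and at 120.6 CPM, on 203 UMIs, in the 129 cells of replicate 3, which is above its level in every compared class of that library.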
